A study of Mus musculus with 24 samples.

Results

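Within tumour natural killer (NK) cells sorted as CD11b+, the 6 CD11b+CD69+ libraries were compared with the 6 CD11b+CD69- libraries, 12 of the 24 RNA-seq libraries of the study. Libraries were assigned by the sort gates in their titles, and every gene with enough counts was described, with weight on families of surface proteins, regulators and metabolic enzymes. All 24 libraries came from subcutaneous B16F10 tumours, a transplanted melanoma line, in the flanks of wild-type female B6 mice at day 14, with no drug or further allele named. The other 12 libraries were CD27+CD69+ and CD27+CD69- cells, 6 of each. Each library held RNA of about 100 sorted cells, and whether replicates came from separate animals is not given, so p-values measure the spread between these samples, which may be technical. In such bulk RNA, fewer cells of a kind and less RNA per cell cannot be told apart.

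NK cells are innate lymphocytes that kill tumour cells through granules of perforin and granzymes and release cytokines. CD11b, the integrin chain encoded by Itgam, marks their mature stages in mice, and CD27 marks earlier ones. CD69 is a C-type lectin that appears soon after activation or interferon exposure and binds the sphingosine-1-phosphate receptor S1PR1, which keeps cells in tissue. Integrins on leukocytes are switched to their binding state by the small GTPase RAP1 and by talin, which ties them to actin.

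Total counts ran from 1830124 to 2461000 in CD69+ libraries, against 2108899 to 2671533 in CD69- libraries, and genes detected from 11909 to 12132, against 11606 to 12046. Mitochondrial transcripts took 0.706 to 1.31% of counts in CD69+ libraries, against 0.668 to 0.871% in CD69- libraries. Replicate 5 of CD69- lay apart from the other libraries on the second principal component. It was among the libraries left out 1 at a time in the fits given below. Cd69 transcript had 1051, 1086 and 1207 CPM in CD69+ libraries, against 304, 589 and 901 CPM in CD69- libraries (lowest, median and highest, the order used throughout; CPM, counts relative to the scaled library size). The populations did not overlap (log2 difference 0.87 (SE 0.20), adjusted p = 0.0135), yet CD69- libraries also held the transcript. Itgam had 32.6, 48.8 and 66.3 CPM in CD69+ libraries, against 59.8, 83.3 and 133 CPM in CD69- libraries (log2 difference -0.88 (SE 0.47), adjusted p = 0.429), with overlap. The 16 NK marker genes summed to 38840, 46010 and 48950 CPM in CD69+ libraries, against 52000, 57620 and 59310 CPM in CD69- libraries, so NK genes were abundant, although the labels list melanoma as the cell type. The sums did not overlap and were lower in CD69+ libraries. Of 9 melanocyte genes Sox10 was at 0 in all 12 libraries and the sum was at most 29.9 CPM, and of 8 neutrophil genes 6 were at 0, among them S100a8 and S100a9. Sums of several other lists had higher medians in CD69+ libraries. T cell genes summed to 1148, 1250 and 1508 CPM in CD69+ libraries, against 872, 982 and 1222 CPM in CD69- libraries, with Cd6 at 0. B cell genes summed to 323, 411 and 485 CPM in CD69+ libraries, against 64.9, 200.2 and 267 CPM in CD69- libraries, with no overlap, while Ms4a1, Pax5 and Igkc were at 0 in all 12. Dendritic cell genes summed to 139, 212 and 355 CPM in CD69+ libraries, against 52.9, 121 and 182 CPM in CD69- libraries, with Flt3, Clec9a and Siglech at 0. Endothelial genes summed to 46.5, 102 and 139 CPM in CD69+ libraries, against 37.3, 51.1 and 68.1 CPM in CD69- libraries, with 5 of 7 at 0. The part of such cells in the results below was not tested.

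Of 10536 genes tested, 173 were higher (1.64%) and 116 lower (1.10%) in CD69+ than in CD69- cells, 2.74% in all, by the quasi-likelihood test of edgeR with Benjamini-Hochberg adjustment over all genes and a threshold of 0.05. Changes are log2 differences, CD69+ minus CD69-. Rises were the larger: 96 of 173 passed 1 on the log2 scale, against 48 of 116 falls, and 16 of the genes that rose had no count in any CD69- library. The median rise was 1.08 and the median fall -0.94. Rising genes were also the less abundant, with a median of 102 CPM over the 12 libraries, against 215 CPM for falling ones. Between the populations, the libraries did not overlap for 102 of the 173 genes and 86 of the 116. Over all genes tested, non-overlap with CD69+ higher was seen for 1.60% and with CD69+ lower for 1.59%. The 59.9% share of rises among the calls was 47.2% with limma-voom and 47.5% when the 12 CD11b+ libraries were fitted alone. Without 1 library at a time the calls numbered 128 to 154 rises and 81 to 110 falls, and 98 and 65 genes were called without each of the 12 libraries. A gene named below with no such remark kept its call in all 12 of these fits, with DESeq2 and with limma-voom. It also kept it with the 12 libraries alone, where that fit tested it. Some genes of few counts, Arhgap5, Csf2 and Ccne1 among them, were not tested there. Calls and counts of calls are by edgeR unless another tool is named.

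**Figure D1:**
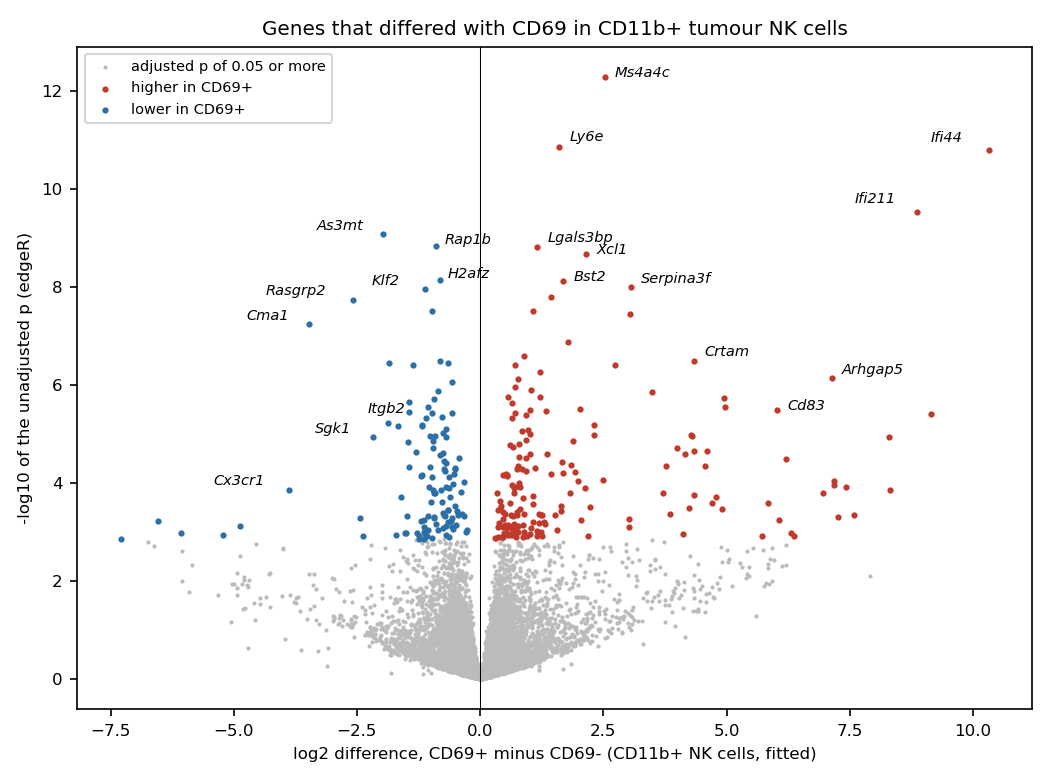
Each point is 1 of 10536 genes, with the fitted log2 difference CD69+ minus CD69- in CD11b+ NK cells on the x axis and -log10 of the unadjusted edgeR p on the y axis. The 173 genes called higher spread to larger differences than the 116 called lower, and Ms4a4c and Ly6e have the smallest p-values among rises with counts in both populations, while the far right holds genes with no CD69- counts, whose fitted size is not a measured fold.

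Several members of the interferon-induced families, of class I presentation, of the cytosolic ribosome and of the nectin-binding and checkpoint genes rose. Members of the actin, RAP1 and integrin groups fell. Over all genes tested the median log2 difference was 0.00, with quartiles of -0.31 and 0.32. Counts of members below are over genes past the filter on low counts and describe the lists. Shares called were at or near the 2.74% over all genes, and so are no result about the group, for phosphatases (2.78%), TRIM and RNF ligases (2.84%), IRF and STAT genes (2.78%), cytokine receptors (2.86%), granule genes (3.03%) and glycolysis (2.78%). They were below it for redox genes (1.96%), chaperones (1.89%), ZFP genes (1.87%), TMEM genes (1.53%) and solute carriers (0.613%). Not far above it were ribosome biogenesis (3.51%), replication and mitosis (4.23%), translation factors (4.35%) and receptor-proximal kinases (4.88%). The lists were drawn up with earlier results of these data known.

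**Figure D2:**
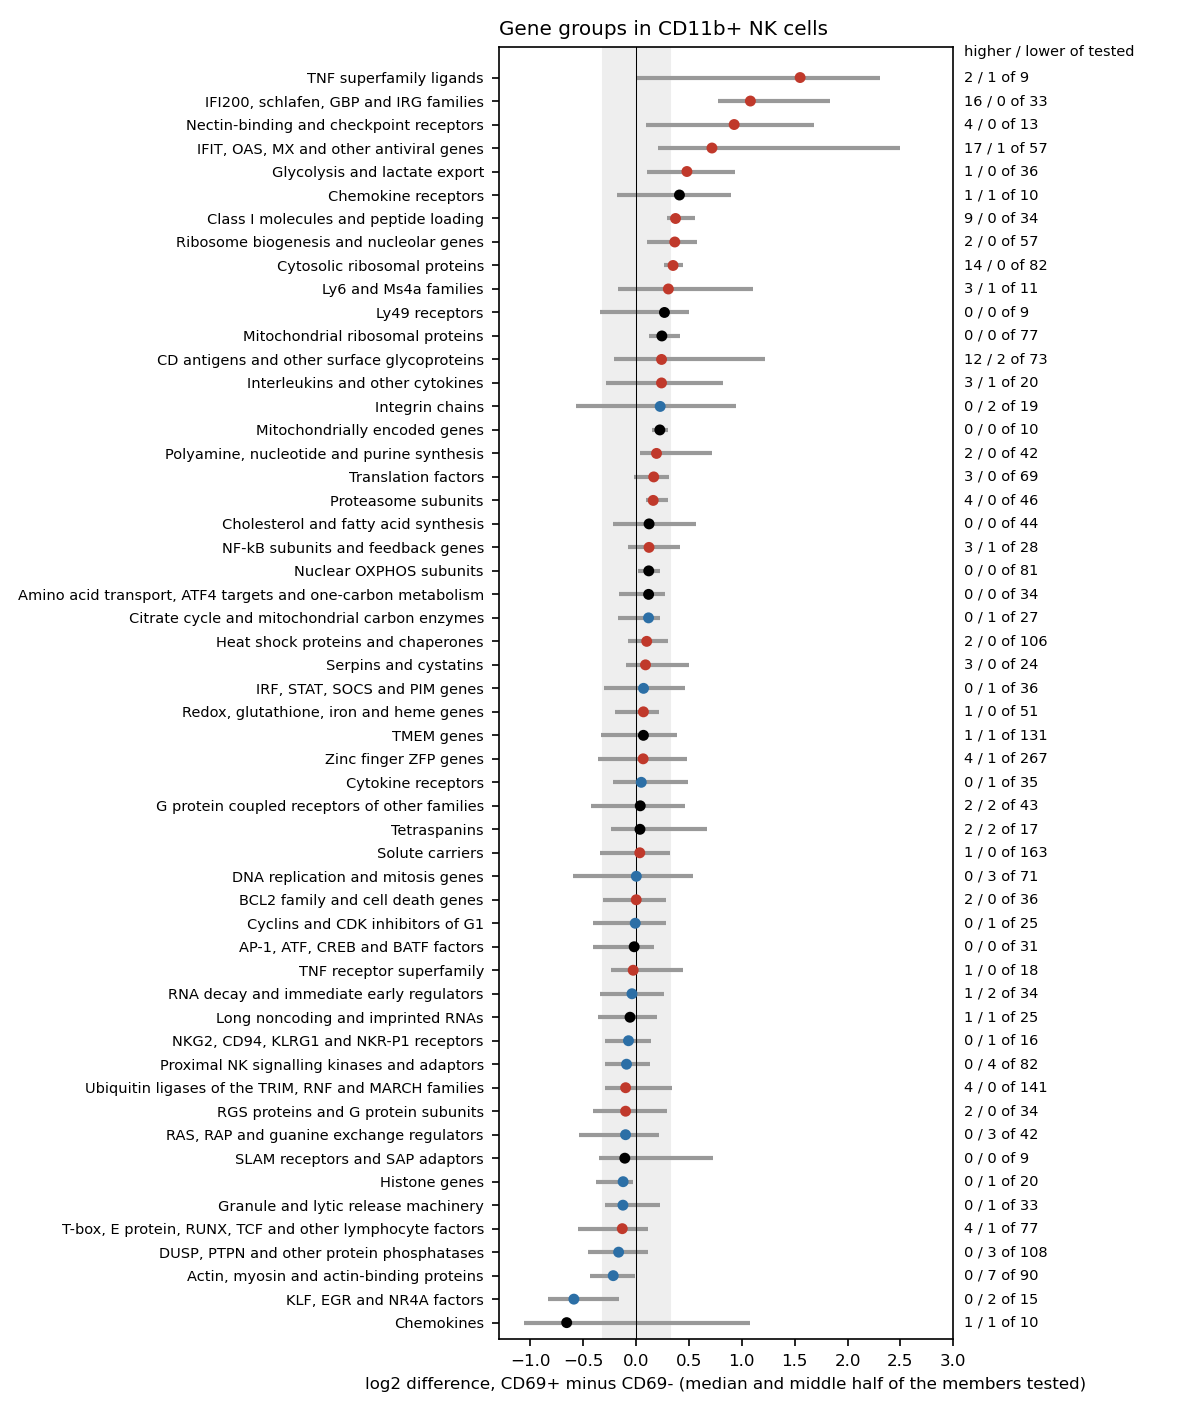
Rows are gene groups of at least 9 tested members. Points are the median log2 difference CD69+ minus CD69- of the members and lines run between their quartiles, red where more members rose than fell, blue where more fell, black where equal, and the grey band runs between the quartiles of all genes tested. TNF ligands (median 1.55), the interferon families (1.08 and 0.72), nectin-binding and checkpoint genes (0.93), glycolysis (0.48), chemokine receptors (0.41), class I genes (0.37), ribosome biogenesis (0.37) and cytosolic ribosomal proteins (0.35) lie to the right of the band. To its left lie KLF, EGR and NR4A factors (-0.59) and chemokines (-0.66).

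Several genes of the RAP1, integrin and actin machinery were lower in CD69+ cells. In the RAS and RAP group 0 rose and 3 fell of 42 tested members, with a median log2 difference of -0.10, against a median of 0.00 over all genes. Rap1b (chr10:117813871-117846035, GRCm38), the RAP1 GTPase that activates leukocyte integrins, had 1058, 1237 and 1352 CPM in CD69+ libraries, against 1998, 2271 and 2625 CPM in CD69- libraries. Every CD69+ library lay below every CD69- library (log2 difference -0.90 (SE 0.10), adjusted p = 2.24e-06). Rasgrp2, the calcium-responsive exchange factor that loads RAP1 with GTP, had 6.07, 16.9 and 24.4 CPM in CD69+ libraries, against 75.8, 98.5 and 112 CPM in CD69- libraries. The populations did not overlap (log2 difference -2.58 (SE 0.33), adjusted p = 1.35e-05).

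In the integrin group 0 rose and 2 fell of 19 tested members, with a median log2 difference of 0.23, the falls being those of single chains. Itgb2, the beta-2 chain that pairs with CD11a in LFA-1 and with CD11b, had 724, 897 and 1001 CPM in CD69+ libraries, against 1678, 1866 and 2323 CPM in CD69- libraries. Its level in CD69+ cells was under that of every CD69- library (log2 difference -1.11 (SE 0.19), adjusted p = 0.000881). Itga2, the alpha-2 chain recognised as DX5 (CD49b) on NK cells, had 24.5, 49.7 and 78.7 CPM in CD69+ libraries, against 108, 138 and 206 CPM in CD69- libraries (log2 difference -1.45 (SE 0.24), adjusted p = 0.00058), with no overlap. Among actin, myosin and linker proteins 0 rose and 7 fell of 90 tested members, with a median log2 difference of -0.22, and 4 to 8 fell without 1 library at a time, the fewest without CD69+ replicate 3 or 4. Actb, cytoplasmic beta-actin, had 5274, 5620 and 5990 CPM in CD69+ libraries, against 6565, 7335 and 7977 CPM in CD69- libraries (log2 difference -0.39 (SE 0.09), adjusted p = 0.0111). Actg1, the gamma isoform, differed by -0.44 (adjusted p = 0.00352), and Tpm4, a tropomyosin that coats actin filaments, by -0.65 (adjusted p = 0.000154), each without overlap. Flna, the filament cross-linker filamin A that binds integrin tails, had 149.8, 191 and 359.5 CPM in CD69+ libraries, against 338, 473 and 581 CPM in CD69- libraries, where replicate 2 of CD69+ reached into the CD69- range (log2 difference -1.19 (SE 0.21), adjusted p = 0.00118). Tln1, which encodes the integrin activator talin-1, had 129.5, 200.3 and 254 CPM in CD69+ libraries, against 279, 322 and 408 CPM in CD69- libraries (log2 difference -0.75 (SE 0.18), adjusted p = 0.0235) and kept its call in 8 of 12 fits without 1 library, with adjusted p up to 0.0668. Arpc5, a subunit of the ARP2/3 complex that branches actin, and Ezr, the membrane linker ezrin, differed by -0.37 (adjusted p = 0.0246) and -0.56 (adjusted p = 0.0386), kept in 5 of 12 and 4 of 12 of those fits (adjusted p up to 0.0689 and 0.0994).

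**Figure D3:**
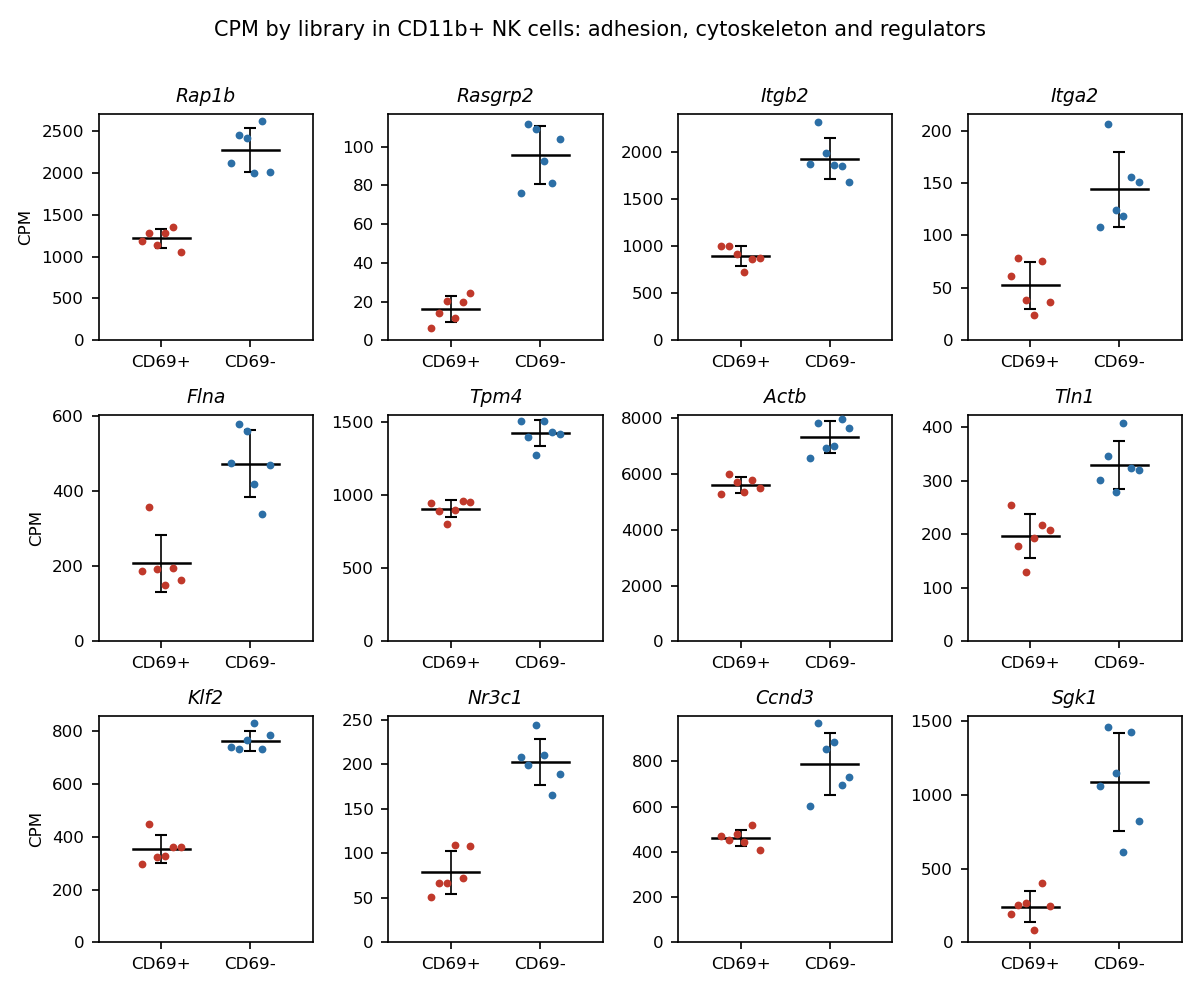
Each point is the CPM of 1 library, CD69+ in red and CD69- in blue, with the mean as a line and the SD as a bar (n = 6 each, axes from 0). For 11 of the 12 genes the 2 sets of points do not overlap, and Flna is the exception, with CD69+ replicate 2 at 359.5 CPM against 338 CPM in the lowest CD69- library. The 12 are a selection, and Arpc5, called and with overlap, is not shown. Over all genes tested, non-overlap with CD69+ lower was seen for 1.59%.

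Among further regulators of small GTPases, falls and a rise were seen. Cdc42se1, a small binding partner of CDC42, had 86.8, 166 and 251 CPM in CD69+ libraries, against 329, 338 and 398 CPM in CD69- libraries (log2 difference -1.06 (SE 0.18), adjusted p = 0.000674), with no overlap. Arhgdia, a GDP-dissociation inhibitor, and Arhgef18, a guanine exchange factor, differed by -0.29 (adjusted p = 0.042) and -1.50 (adjusted p = 0.0435), but each kept its call in 1 of 12 fits without 1 library (adjusted p up to 0.0995 and 0.105). Arhgap5, a GTPase-activating protein, went the other way: it had 0, 16.2 and 37.5 CPM in CD69+ libraries, while 1 of 6 CD69- libraries held it, at 0.382 CPM. The ratio of summed counts was 259 (95% interval 46.1 to 10300, counting error only; adjusted p = 0.000264, but adjusted p = 0.0599 with limma-voom).

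Among receptor-proximal kinases and adaptors 0 rose and 4 fell of 82 tested members (4.88% called, beside 2.74% over all genes). Their median log2 difference was -0.09, and 2 to 4 fell without 1 library at a time. Pik3r1, the p85-alpha regulatory subunit of PI3 kinase, had 336, 424 and 481 CPM in CD69+ libraries, against 524, 671 and 809 CPM in CD69- libraries (log2 difference -0.69 (SE 0.13), adjusted p = 0.00163), with no overlap. Sgk1, a kinase downstream of PI3 kinase and a classical glucocorticoid target, had 81.6, 249 and 402 CPM in CD69+ libraries, against 615, 1103 and 1462 CPM in CD69- libraries, and fell the most of the group (log2 difference -2.18 (SE 0.39), adjusted p = 0.00163). Stk10, a kinase that acts on ezrin-family proteins, and Nedd9, a docking protein of integrin signalling, differed by -1.14 (adjusted p = 0.0284) and -0.69 (adjusted p = 0.0449) and kept their calls in 6 of 12 and 2 of 12 fits without 1 library (adjusted p up to 0.086 and 0.111). Of 108 phosphatase genes tested 0 rose and 3 fell (2.78% called, beside 2.74% over all genes), and 1 fell without CD69- replicate 3. These were Ppp2r5a and Ppp2r5c, regulatory subunits of PP2A, at -0.70 (adjusted p = 0.00422) and -0.51 (adjusted p = 0.0186), and Ptpn4, a tyrosine phosphatase, at -0.66 (adjusted p = 0.0307). Ppp2r5c lost its call without CD69- replicate 3 (log2 -0.42, adjusted p = 0.0644), and Ptpn4 kept it in 5 of 12 fits (adjusted p up to 0.105).

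Several transcription regulators of quiescence and of early response were lower in CD69+ cells. In the group of KLF, EGR and NR4A factors 0 rose and 2 fell of 15 tested members, with a median log2 difference of -0.59. Klf2, which in T cells drives S1pr1 and restrains growth, had 299, 344 and 449 CPM in CD69+ libraries, against 733, 753 and 829.6 CPM in CD69- libraries (log2 difference -1.11 (SE 0.14), adjusted p = 9.55e-06), with no overlap. Nr4a1, an orphan nuclear receptor induced by antigen receptor signals in T cells, had 136, 234 and 323 CPM in CD69+ libraries, against 330.1, 564 and 671 CPM in CD69- libraries (log2 difference -1.18 (SE 0.25), adjusted p = 0.00609). Nr3c1, the glucocorticoid receptor, had 50.8, 69.7 and 109.5 CPM in CD69+ libraries, against 166, 203 and 244 CPM in CD69- libraries (log2 difference -1.36 (SE 0.20), adjusted p = 0.000154). Libraries of the 2 populations did not overlap for these 3 factors. Of 34 RNA-decay and immediate-early genes 1 rose and 2 fell. Ier2, an immediate-early regulator, and Zfp36, which encodes the mRNA-destabilising protein tristetraprolin, differed by -0.86 (adjusted p = 0.000414) and -0.91 (adjusted p = 0.00162), both without overlap. Zc3h12d, a regnase-family RNase, was the one that rose, with 2 counts in CD69- libraries: the count ratio was 37.4 (95% interval 9.97 to 315, counting error only; adjusted p = 0.0164, but adjusted p = 0.182 with limma-voom). Irf8, an interferon regulatory factor also expressed in NK cells, had 1106, 1285 and 1604 CPM in CD69+ libraries, against 1898, 2134 and 2393 CPM in CD69- libraries (log2 difference -0.70 (SE 0.15), adjusted p = 0.00928), with no overlap. It was the one gene called by edgeR among 36 IRF, STAT, SOCS and PIM genes, where DESeq2 also called 2 rises and limma-voom 1. None of 31 AP-1, ATF and BATF genes was called by edgeR (5 at an unadjusted p under 0.05, 1 called by DESeq2, 0 by limma-voom), the smallest adjusted p being 0.126 for Maf.

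The lymphocyte factors that rose were of other kinds. In the T-box, E protein, RUNX and TCF group 4 rose and 1 fell of 77 tested members, with a median log2 difference of -0.13, and 2 to 4 rose without 1 library at a time, the fewest without CD69+ replicate 6 or CD69- replicate 2. Hif1a, the oxygen-regulated subunit of hypoxia-inducible factor, had 100.2, 125 and 162 CPM in CD69+ libraries, against 44.3, 63.6 and 80.5 CPM in CD69- libraries (log2 difference 1.02 (SE 0.17), adjusted p = 0.000739), with no overlap. Zbtb32, a zinc finger repressor induced in proliferating mouse NK cells, had 0.416, 10.8 and 20.5 CPM in CD69+ libraries, while no CD69- library held a count. Against a floor of 3 counts over the CD69- libraries it was at least 45.3-fold higher (adjusted p = 0.00928). Tcf7, encoding TCF-1, had 113, 176 and 254 CPM in CD69+ libraries, against 19.7, 70.0 and 168 CPM in CD69- libraries, which overlapped (log2 difference 1.22 (SE 0.31), adjusted p = 0.0246, kept in 8 of 12 fits without 1 library, adjusted p up to 0.0711). Ikzf2, encoding Helios, differed by 1.31 (adjusted p = 0.0307) and kept its call in 3 of 12 of these fits (adjusted p up to 0.0806). Of 267 ZFP-named zinc finger genes 4 rose, near the background: Zfp418 and Zfp975, at least 34.7-fold higher and at least 86.3-fold higher over 0 counts (for Zfp975 adjusted p = 0.0771 with limma-voom), Zfp52 by 1.32 (adjusted p = 0.0328), kept in 4 of 12 fits without 1 library (adjusted p up to 0.0939), and Zfp939, which is given below. Mir155hg, the host transcript of miR-155, rose by 1.63 (adjusted p = 0.0217) but not without CD69+ replicate 6 (adjusted p = 0.0893) or CD69- replicate 4 (0.0554). Neat1, a nuclear long noncoding RNA, differed by -1.05 (adjusted p = 0.04) and kept the call in 2 of 12 fits (adjusted p up to 0.0903).

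Few cell cycle genes were called, and those called by edgeR fell. In the replication and mitosis group 0 rose and 3 fell of 71 tested members (4.23% called, beside 2.74% over all genes). The median log2 difference was 0.00. Without 1 library at a time 1 to 3 fell, 1 without CD69+ replicate 1, 3, 4 or 5. H2afz, the histone variant H2A.Z, had 406, 453 and 523 CPM in CD69+ libraries, against 764, 797 and 873 CPM in CD69- libraries (log2 difference -0.82 (SE 0.10), adjusted p = 8.04e-06), with no overlap, and no other of 20 histone genes was called by edgeR, DESeq2 or limma-voom. In a separate list of 25 G1 cyclins and CDK inhibitors 0 rose and 1 fell (4.0% called), while DESeq2 called 1 rise and 1 fall and limma-voom 2 falls. That fall was Ccnd3, cyclin D3, with 409, 460 and 517 CPM in CD69+ libraries, against 602, 792 and 970.1 CPM in CD69- libraries (log2 difference -0.77 (SE 0.14), adjusted p = 0.00086). The other 2 genes are of the replication and mitosis group. Stmn1, a microtubule regulator of dividing cells, differed by -2.44 (adjusted p = 0.0266), kept in 7 of 12 fits (adjusted p up to 0.0808). Ccne1, cyclin E1, had no count in CD69+ libraries and 0, 5.74 and 10.7 CPM in CD69- libraries, at least 23.1-fold lower in CD69+ cells (adjusted p = 0.0301, kept in 5 of 12 fits, adjusted p up to 0.0605).

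Turning to the cell surface, receptors that bind nectins and related checkpoint genes were higher in CD69+ cells for 4 genes. In this group 4 rose and 0 fell of 13 tested members, with a median log2 difference of 0.93, and 3 or 4 rose without 1 library at a time. Crtam, a nectin-like receptor that binds CADM1, had 53.3, 91.5 and 228 CPM in CD69+ libraries, against 0, 1.48 and 20.7 CPM in CD69- libraries. The populations did not overlap, and 3 of the CD69- libraries had no count (log2 difference 4.34 (SE 0.64), adjusted p = 0.000154). Cd96, a receptor for the poliovirus receptor CD155, had 375, 414 and 519.6 CPM in CD69+ libraries, against 194, 227 and 257 CPM in CD69- libraries (log2 difference 0.93 (SE 0.16), adjusted p = 0.000813), with no overlap. Pdcd1lg2, which encodes PD-L2, a ligand of PD-1, had 33.3, 39.8 and 58.4 CPM in CD69+ libraries, against 3.76, 11.1 and 27.6 CPM in CD69- libraries (log2 difference 1.68 (SE 0.35), adjusted p = 0.00566). Cd160, a receptor of HVEM and class I molecules, had 55.4, 154 and 213 CPM in CD69+ libraries, against 35.3, 55.8 and 101 CPM in CD69- libraries and overlapped (log2 difference 1.19 (SE 0.30), adjusted p = 0.0246, kept in 6 of 12 fits, adjusted p up to 0.0732).

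TNF family genes changed at both ends of the pathway. Among ligands 2 rose and 1 fell of 9 tested members, with a median log2 difference of 1.55, and 2 to 4 rose without 1 library at a time, 4 of them without CD69- replicate 6. Ltb, the membrane anchor of lymphotoxin, had 51.0, 80.1 and 108 CPM in CD69+ libraries, against 2.46, 13.8 and 31.6 CPM in CD69- libraries (log2 difference 2.30 (SE 0.41), adjusted p = 0.00118), with no overlap. Tnfsf9, the ligand 4-1BBL, had 0.416, 19.8 and 41.0 CPM in CD69+ libraries, against 0, 0 and 4.92 CPM in CD69- libraries, with CD69- counts in replicates 5 and 6 alone, and overlapped through CD69+ replicates 3 and 5 (log2 difference 4.24 (SE 1.03), adjusted p = 0.02, but adjusted p = 0.109 with limma-voom and 0.0693 with the 12 CD11b+ libraries alone). Fasl, the death ligand, had 1079, 1190 and 1300 CPM in CD69+ libraries, against 1513, 1758 and 1940 CPM in CD69- libraries and was lower without overlap (log2 difference -0.55 (SE 0.12), adjusted p = 0.00844). Of 18 TNF receptors 1 rose: Tnfrsf9, the receptor 4-1BB, had 1016, 1217 and 1728 CPM in CD69+ libraries, against 423, 590.4 and 757 CPM in CD69- libraries (log2 difference 1.22 (SE 0.19), adjusted p = 0.0002). Among NF-kB subunits and adaptors 3 rose and 1 fell of 28 tested members, with a median log2 difference of 0.12, and 1 rose without CD69+ replicate 1 or CD69- replicate 3. Traf1, an adaptor of 4-1BB, had 406, 495 and 560.1 CPM in CD69+ libraries, against 157, 287 and 343 CPM in CD69- libraries (log2 difference 0.85 (SE 0.18), adjusted p = 0.00502). Relb, a subunit of the noncanonical pathway, had 111, 147 and 204 CPM in CD69+ libraries, against 35.3, 80.5 and 108 CPM in CD69- libraries (log2 difference 1.06 (SE 0.25), adjusted p = 0.0173). Relb lost its call without CD69+ replicate 1 (adjusted p = 0.0549) or CD69- replicate 3 (0.0516). Traf2, another adaptor, rose by 0.74 (adjusted p = 0.0246), kept in 7 of 12 fits (adjusted p up to 0.0805), and Nfkbiz, a nuclear cofactor of NF-kB, differed by -0.93 (adjusted p = 0.0271), kept in 6 of 12 (up to 0.0778).

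**Figure D4:**
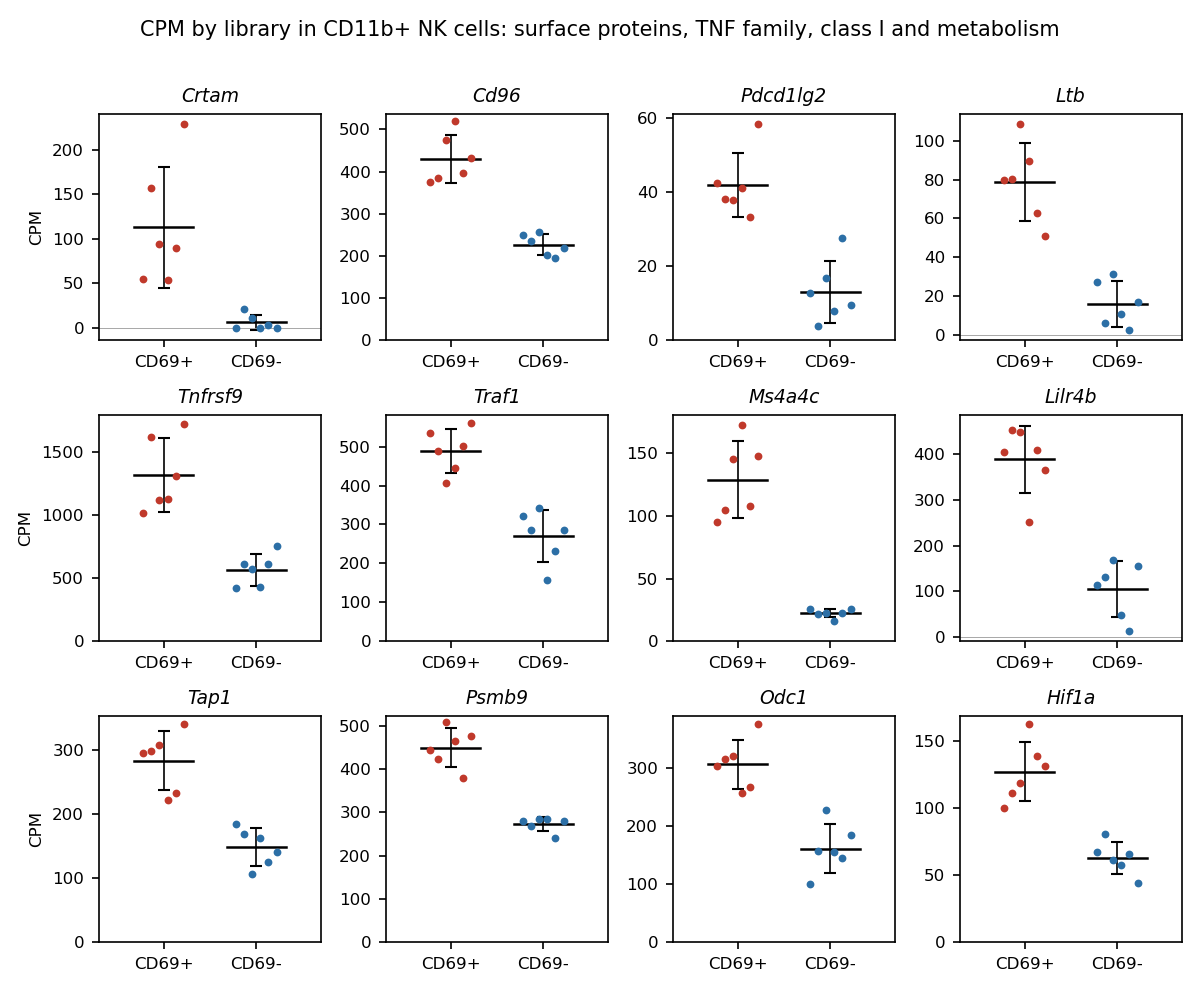
Each point is the CPM of 1 library, CD69+ in red and CD69- in blue, with the mean as a line and the SD as a bar (n = 6 each, axes from 0). For all 12 genes shown every CD69+ library lies above every CD69- library, for example 375 CPM or more against 257 CPM or less for Cd96. The 12 are a selection, and called genes of these groups that overlap, such as Cd160 and Tnfsf9, are not shown. Over all genes tested, non-overlap with CD69+ higher was seen for 1.60%.

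The CD antigens held 12 rises and 2 falls among 73 tested genes (19.2% called, beside 2.74% over all genes), with 9 to 13 rises without 1 library at a time. The sort marker Cd69 is counted among the 12 rises, and its rise follows from the sort. Bst2 is counted both here and in the antiviral group below. Lilrb4a, encoding the inhibitory receptor gp49B, had 72.5, 103 and 129.9 CPM in CD69+ libraries, against 4.20, 15.9 and 46.3 CPM in CD69- libraries (log2 difference 2.31 (SE 0.43), adjusted p = 0.00162). Its neighbour Lilr4b, a related receptor without inhibitory motifs, had 252, 407 and 453 CPM in CD69+ libraries, against 12.8, 122 and 168 CPM in CD69- libraries (log2 difference 1.89 (SE 0.35), adjusted p = 0.00191), and reads of 2 such similar genes may be shared. Cd83, an activation marker of dendritic cells and lymphocytes, had 0, 104 and 314 CPM in CD69+ libraries, against 0, 0.706 and 5.74 CPM in CD69- libraries, at 0 in CD69+ replicate 5 and at most 5.74 CPM in CD69- libraries (log2 difference 6.02 (SE 1.00), adjusted p = 0.000739, but adjusted p = 0.487 with limma-voom). Jaml, a junctional adhesion molecule, and Emb, the adhesion glycoprotein embigin, rose by 3.98 (adjusted p = 0.00242) and 1.01 (adjusted p = 0.00298), though the adjusted p of Jaml was 0.0632 with the 12 CD11b+ libraries alone. Cd3g, a chain of the T cell receptor complex, had 10.6, 33.7 and 98.2 CPM in CD69+ libraries, against 0, 0 and 19.2 CPM in CD69- libraries. Its CD69- counts came from replicate 5 alone, the populations overlapped only through it, and without it the call stayed (adjusted p = 0.000103). The call was lost with other fits of all its libraries (adjusted p = 0.0837 with limma-voom and 0.119 with the 12 CD11b+ libraries alone). Of 9 T cell markers tested, 7 lay above 0 and 1 below, and 4 had an unadjusted p under 0.05. Cd3g was the one called by edgeR, while DESeq2 called 3 rises and limma-voom 1. Cd3e and Trbc2, of the same list but outside the naming rule, differed by 3.55 (adjusted p = 0.116) and 0.09 (adjusted p = 0.939) and were not called. Lgals1, the secreted lectin galectin-1, and Spn, the sialoglycoprotein CD43, differed by -0.54 (adjusted p = 0.00598) and -0.93 (adjusted p = 0.0257), and Spn kept its call in 7 of 12 fits (adjusted p up to 0.0741).

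Small surface families held some of the clearest differences. In the Ly6 and Ms4a families 3 rose and 1 fell of 11 tested members, with a median log2 difference of 0.31, and 5 rose without CD69+ replicate 2. Ms4a4c (chr19:11404770-11427246), a 4-pass membrane protein of the MS4A family, had the smallest p of all genes and 95.0, 127 and 172 CPM in CD69+ libraries, against 16.4, 22.7 and 25.6 CPM in CD69- libraries (log2 difference 2.52 (SE 0.20), adjusted p = 5.41e-09). Every CD69+ library lay above every CD69- library. Ly6e, a GPI-anchored interferon-induced protein, had 2434, 2595 and 2945 CPM in CD69+ libraries, against 501, 939 and 1057 CPM in CD69- libraries (log2 difference 1.61 (SE 0.14), adjusted p = 5.59e-08). Ly6a, the stem cell antigen Sca-1, had 14.2, 62.6 and 146 CPM in CD69+ libraries, against 0, 0.908 and 8.61 CPM in CD69- libraries (log2 difference 4.61 (SE 0.86), adjusted p = 0.00276, but adjusted p = 0.517 with limma-voom). Ly6c2, of the same chromosome 15 family, had 417, 505 and 581 CPM in CD69+ libraries, against 838, 1172 and 1399 CPM in CD69- libraries and was lower (log2 difference -1.21 (SE 0.30), adjusted p = 0.0298), kept in 2 of 12 fits (adjusted p up to 0.0758). Of 17 tetraspanins 2 rose and 2 fell. Tspan13 rose by 0.67 (adjusted p = 0.00242) and Tspan32, a haematopoietic member that restrains T cell proliferation in mice, differed by -1.44 (adjusted p = 0.000765), each with no overlap, while Cd82 and Tspan5, at 0.66 (adjusted p = 0.025) and -1.23 (adjusted p = 0.046), kept their calls in 4 of 12 and 2 of 12 fits (adjusted p up to 0.0728 and 0.111).

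Chemotactic receptors moved in opposite directions. Ccr2, the receptor of CCL2, had 798, 1017 and 1242 CPM in CD69+ libraries, against 292, 529 and 649.9 CPM in CD69- libraries (log2 difference 1.04 (SE 0.17), adjusted p = 0.0004), and Cx3cr1, the fractalkine receptor of mature NK cells, had 0, 1.62 and 31.5 CPM in CD69+ libraries, against 37.5, 119.8 and 232 CPM in CD69- libraries (log2 difference -3.88 (SE 0.87), adjusted p = 0.01), both with no overlap. No other of 10 chemokine receptors was called by edgeR or limma-voom, and DESeq2 called 1 more rise. Among other G protein coupled receptors 2 rose and 2 fell of 43 tested members, with a median log2 difference of 0.04, and 1 to 2 fell without 1 library at a time. Gpr183, the oxysterol receptor EBI2, had 9.97, 48.7 and 83.9 CPM in CD69+ libraries, against 1.48, 9.35 and 24.2 CPM in CD69- libraries (log2 difference 1.92 (SE 0.40), adjusted p = 0.00556, but adjusted p = 0.118 with limma-voom and 0.0707 with the 12 CD11b+ libraries alone), and Gpr18 rose by 0.70 (adjusted p = 0.0113), with overlap in both. The 10 ILC1 markers, Gpr183 among them, summed to 112, 178 and 211 CPM in CD69+ libraries, against 55.0, 95.2 and 214 CPM in CD69- libraries, with Zfp683 at 0, and their part was not tested. Adgre5, the adhesion receptor CD97, had 346, 422 and 582 CPM in CD69+ libraries, against 658, 709 and 842 CPM in CD69- libraries (log2 difference -0.75 (SE 0.15), adjusted p = 0.00297). S1pr5, which guides NK cells out of tissue, differed by -1.53 (adjusted p = 0.0432) and kept its call in 2 of 12 fits (adjusted p up to 0.117). Of 34 RGS and G protein genes 2 rose. Rgs1, which dampens chemokine receptor signals, had 1792, 2890 and 4222 CPM in CD69+ libraries, against 1657, 2013 and 2460 CPM in CD69- libraries (log2 difference 0.56 (SE 0.15), adjusted p = 0.0334), kept in 5 of 12 fits (adjusted p up to 0.12), and Rgs11, with 0, 9.36 and 21.1 CPM in CD69+ libraries and none in the other population, was at least 37.6-fold higher (adjusted p = 0.00886, but adjusted p = 0.118 with limma-voom).

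Families of NK cell receptors gave few calls. None of 9 Ly49 genes was called by edgeR or DESeq2 (2 at an unadjusted p under 0.05, 1 called by limma-voom), the smallest adjusted p being 0.139 for Klra9, and none of 9 SLAM family genes by either (5 at an unadjusted p under 0.05, 1 called by limma-voom, lowest 0.0922 for Sh2d1b1). Of 16 NKG2, CD94 and NKR-P1 genes, Klrc2, encoding the activating receptor NKG2C, was called, with 294, 369.5 and 399 CPM in CD69+ libraries, against 430.1, 559 and 652 CPM in CD69- libraries (log2 difference -0.63 (SE 0.14), adjusted p = 0.00938). Of 35 cytokine receptors, Il18rap, the signalling chain of the IL-18 receptor, was called, with 399, 511 and 676 CPM in CD69+ libraries, against 756, 842 and 985 CPM in CD69- libraries (log2 difference -0.75 (SE 0.14), adjusted p = 0.00153). Of 33 genes of granules and lytic release, the call was that of Prf1, perforin, with 1893, 2190 and 2695 CPM in CD69+ libraries, against 3157, 3823 and 4575 CPM in CD69- libraries (log2 difference -0.77 (SE 0.18), adjusted p = 0.016). Of 5 granzymes it was that of Gzmc, a granzyme of activated mouse lymphocytes, with 121, 234 and 475 CPM in CD69+ libraries, against 0, 11.1 and 36.9 CPM in CD69- libraries (log2 difference 4.29 (SE 0.76), adjusted p = 0.00162, but adjusted p = 0.192 with limma-voom), and DESeq2 and limma-voom each called 1 granzyme lower. In the groups of NKG2, cytokine receptor and granule genes DESeq2 called 1, 1 and 2 rises and 1, 2 and 2 falls. Xcl1 and Ccl5, chemokines for dendritic cells and for T cells, differed by 2.15 (adjusted p = 2.81e-06) and -0.98 (adjusted p = 2.04e-05).

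Among cytokines 3 rose and 1 fell of 20 tested members, with a median log2 difference of 0.24. Of these 1 rose without CD69+ replicate 3. Csf2, encoding GM-CSF, had 0, 37.8 and 118 CPM in CD69+ libraries, against 0, 0.228 and 1.53 CPM in CD69- libraries (log2 difference 6.21 (SE 1.24), adjusted p = 0.00353, but adjusted p = 0.19 with limma-voom). Spp1, osteopontin, had 19.6, 85.2 and 1379 CPM in CD69+ libraries, against 0, 15.6 and 20.5 CPM in CD69- libraries, with replicate 3 of CD69+ far above the rest. Its difference of 4.34 (adjusted p = 0.0123) became 2.24 (adjusted p = 0.0508) without that library, and its adjusted p = 0.359 with limma-voom. The 13 macrophage and monocyte markers summed to 131, 184 and 225 CPM in CD69+ libraries, against 99.3, 156 and 159.7 CPM in CD69- libraries, with Mrc1 at 0, and their part was not tested. Osm, oncostatin M, had 40.3, 50.0 and 154 CPM in CD69+ libraries, against 122, 217 and 284 CPM in CD69- libraries (log2 difference -1.49 (SE 0.37), adjusted p = 0.0249, kept in 6 of 12 fits, adjusted p up to 0.0732), and Mif differed by 0.90 (adjusted p = 0.0425), kept in 2 of 12 (up to 0.0939). Of 24 serpin and cystatin-family genes 3 rose and 0 fell by edgeR, while DESeq2 and limma-voom each called 4 rises and 1 fall. Serpina3g, an inhibitor of cathepsins in mouse lymphocytes, had 1471, 1678 and 1799 CPM in CD69+ libraries, against 345, 559 and 949.7 CPM in CD69- libraries (log2 difference 1.44 (SE 0.18), adjusted p = 1.31e-05), its paralog Serpina3f rose by 3.05 (adjusted p = 9.55e-06), and Ctla2a, a cathepsin L inhibitor of activated lymphocytes, by 0.97 (adjusted p = 0.0014). Reads of the Serpina3 paralogs may be shared.

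Many members of interferon-induced families rose. Among IFI200, schlafen, GBP and IRG genes 16 rose and 0 fell of 33 tested members, with a median log2 difference of 1.08. Without 1 library at a time 9 to 15 rose, with 9 without CD69- replicate 3 or 5 and 10 without CD69- replicate 2. Mndal, an IFI200 protein of the nucleus, had 288, 322 and 391 CPM in CD69+ libraries, against 128, 161 and 178 CPM in CD69- libraries (log2 difference 1.08 (SE 0.14), adjusted p = 2.04e-05). Ifi213 and Ifi203, of the same cluster of DNA sensors on chromosome 1, rose by 1.66 (adjusted p = 0.0041) and 1.01 (adjusted p = 0.00156), and Gbp7 and Gbp6, guanylate-binding proteins, by 0.80 (adjusted p = 0.00928) and 1.83 (adjusted p = 0.0113). Tgtp2, an immunity-related GTPase, had 70.3, 96.0 and 125 CPM in CD69+ libraries, against 16.0, 31.5 and 64.4 CPM in CD69- libraries (log2 difference 1.43 (SE 0.30), adjusted p = 0.00598). Slfn5, a schlafen family member, had 7.04, 11.3 and 27.1 CPM in CD69+ libraries, against 0, 0 and 2.46 CPM in CD69- libraries. The CD69- counts of Slfn5 came from replicate 6 alone, and the call stayed without it (adjusted p = 1.76e-05). Ifi211, of the same DNA-sensor cluster, had 13.4, 29.5 and 42.2 CPM in CD69+ libraries, at least 127-fold higher than the floor of 3 counts, as CD69- libraries had none (adjusted p = 7.59e-07).

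In the IFIT, OAS, MX and antiviral group 17 rose and 1 fell of 57 tested members, with a median log2 difference of 0.72. Ifi44 had 29.4, 63.5 and 149 CPM and Rsad2, encoding viperin, 3.32, 36.9 and 65.3 CPM in CD69+ libraries with no read of either in the other population. They were at least 352-fold higher and at least 157-fold higher (adjusted p = 5.59e-08 and 0.000771), and for Rsad2 adjusted p = 0.0613 with limma-voom. Usp18, which removes ISG15 and damps interferon signalling, had 109, 194 and 393 CPM in CD69+ libraries, against 10.3, 26.8 and 58.9 CPM in CD69- libraries (log2 difference 2.74 (SE 0.41), adjusted p = 0.000154). Isg15 itself had 23.8, 37.5 and 58.4 CPM in CD69+ libraries, against 4.89, 10.8 and 16.2 CPM in CD69- libraries (log2 difference 1.98 (SE 0.43), adjusted p = 0.00764). Bst2, the virus tether tetherin, had 119.7, 144 and 227 CPM in CD69+ libraries, against 22.6, 53.0 and 60.0 CPM in CD69- libraries (log2 difference 1.69 (SE 0.20), adjusted p = 8.04e-06). Lgals3bp, a secreted galectin-3 binding protein, had 611, 724 and 925 CPM in CD69+ libraries, against 289.7, 311 and 460.5 CPM in CD69- libraries (log2 difference 1.16 (SE 0.13), adjusted p = 2.24e-06). Isg20, an exonuclease, and the oligoadenylate synthetase genes Oas1a and Oasl2 rose by 3.04 (adjusted p = 2.21e-05), 1.79 (adjusted p = 7.29e-05) and 3.49 (adjusted p = 0.00042). Rtp4, a chaperone of receptors, rose by 2.02 (adjusted p = 0.000732), with replicate 1 of CD69- at 83.1 CPM inside the CD69+ range. Ifit3 had 23.0, 85.4 and 134 CPM in CD69+ libraries, against 0, 0 and 21.9 CPM in CD69- libraries, its CD69- counts again from replicate 1 alone (log2 difference 4.56 (SE 0.91), adjusted p = 0.00467; adjusted p = 2.32e-06 without it). The fall in this group was Ifitm10, not known as interferon-induced, at -0.65 (adjusted p = 0.0217), kept in 8 of 12 fits (adjusted p up to 0.0594). Among TRIM and RNF ligases 4 of 141 rose (2.84% called, beside 2.74% over all genes), with Isg15 and Usp18 counted among them, Trim30a at 0.92 (adjusted p = 0.00536) and Trim12c at 1.26 (adjusted p = 0.0465). Trim12c kept its call in 2 of 12 fits (adjusted p up to 0.11).

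Promoter windows of some of these genes are shown to set the sequence beside the level. Windows run from 250 bases before to 50 after the start, 5' to 3' along the gene, from RefSeq on GRCm38.p6. Capitals mark matches, on either strand, to the core of the interferon-stimulated response element, GAAANNGAAA, or in Ltb to an NF-kB motif, GGGNNTTTCC. Ifi211 and Rsad2 are 2 of the 3 genes that, among the 10 with counts in 5 or 6 CD69+ and in no CD69- libraries, had a response element match. The other 7, Ifi44 among them, had none. Ifit3, Bst2 and Isg15 stand for genes with several matches, and Ltb for the TNF family.
Ifi211, chr1:173912997-173913296, minus strand: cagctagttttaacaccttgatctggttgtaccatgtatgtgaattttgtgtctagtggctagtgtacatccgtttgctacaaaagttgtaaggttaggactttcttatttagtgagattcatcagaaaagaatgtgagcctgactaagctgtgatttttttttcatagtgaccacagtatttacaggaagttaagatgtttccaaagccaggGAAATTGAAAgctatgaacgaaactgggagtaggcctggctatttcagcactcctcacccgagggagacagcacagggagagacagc
Rsad2, chr12:26456403-26456702, minus strand: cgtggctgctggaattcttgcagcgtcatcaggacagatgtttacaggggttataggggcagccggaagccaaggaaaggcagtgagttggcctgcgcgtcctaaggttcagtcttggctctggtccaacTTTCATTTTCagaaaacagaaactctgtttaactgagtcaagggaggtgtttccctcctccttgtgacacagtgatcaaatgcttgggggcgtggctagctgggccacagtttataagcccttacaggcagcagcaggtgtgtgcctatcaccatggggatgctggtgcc
Ifit3, chr19:34583279-34583578, plus strand: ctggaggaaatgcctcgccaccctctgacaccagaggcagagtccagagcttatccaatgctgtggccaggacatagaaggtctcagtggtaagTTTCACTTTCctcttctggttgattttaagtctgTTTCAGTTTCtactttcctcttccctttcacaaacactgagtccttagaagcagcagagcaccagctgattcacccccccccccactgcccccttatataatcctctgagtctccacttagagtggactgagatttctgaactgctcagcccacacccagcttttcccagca
Bst2, chr8:71537423-71537722, minus strand: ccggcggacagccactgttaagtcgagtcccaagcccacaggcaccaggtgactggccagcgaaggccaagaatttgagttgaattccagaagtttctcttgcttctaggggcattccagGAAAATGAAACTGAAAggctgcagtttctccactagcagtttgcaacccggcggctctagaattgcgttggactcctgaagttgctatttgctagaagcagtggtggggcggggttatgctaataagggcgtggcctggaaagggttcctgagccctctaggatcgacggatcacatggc
Isg15, chr4:156200769-156201068, minus strand: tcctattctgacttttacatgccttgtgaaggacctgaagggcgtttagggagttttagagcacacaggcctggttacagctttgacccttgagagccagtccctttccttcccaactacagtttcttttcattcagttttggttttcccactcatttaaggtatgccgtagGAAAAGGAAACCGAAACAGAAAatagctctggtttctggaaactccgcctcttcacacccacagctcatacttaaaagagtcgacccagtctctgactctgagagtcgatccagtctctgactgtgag
Ltb, chr17:35194257-35194556, plus strand: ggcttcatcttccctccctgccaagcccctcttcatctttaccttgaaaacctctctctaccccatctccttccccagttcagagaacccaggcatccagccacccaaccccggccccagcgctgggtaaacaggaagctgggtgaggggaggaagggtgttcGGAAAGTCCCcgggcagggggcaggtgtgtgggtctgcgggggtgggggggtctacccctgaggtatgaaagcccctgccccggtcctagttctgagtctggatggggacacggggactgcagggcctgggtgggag

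In these windows Isg15 had 3 overlapping matches, Bst2 2 overlapping ones and Ifit3 2 separate ones. Windows were matched by symbol for 132 of the 173 genes that rose, 81 of the 116 that fell and 8035 of the 10536 tested. All windows of 1 chromosome were left out beforehand. The response element core was found for 33 of the 132 (25.0%), 4 of the 81 (4.94%) and 320 of all 8035 (3.98%). The NF-kB motif was found for 8 of the 132 (6.06%), 1 of the 81 (1.23%) and 167 of all 8035 (2.08%), and 2 genes that rose had both. Besides Ltb, genes that rose with an NF-kB match included Tnfrsf9, Traf2, Serpina3g, B2m and Casp4, while Traf1 had no match. A match is a run of letters and does not show binding.

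Class I presentation genes rose at several steps, from proteasome to surface. Of 34 tested genes 9 rose and 0 fell, 30 lay above 0, and the median was 0.37. Without 1 library at a time 7 to 9 rose, the fewest without CD69+ replicate 4. Psmb9, a subunit of the immunoproteasome, had 379, 454 and 508 CPM in CD69+ libraries, against 242, 280.5 and 285 CPM in CD69- libraries (log2 difference 0.72 (SE 0.11), adjusted p = 0.000154). Tap1, a subunit of the peptide transporter, had 223, 297 and 341 CPM in CD69+ libraries, against 106, 152 and 186 CPM in CD69- libraries (log2 difference 0.93 (SE 0.19), adjusted p = 0.00341). These neighbours on chromosome 17 are transcribed away from each other, with 226 bases between their RefSeq starts. Psmb8, the third such gene of the locus, rose by 0.40 (adjusted p = 0.0207), but not without CD69+ replicate 4 (adjusted p = 0.0734) or CD69- replicate 4 (0.0546). Psme1 and Psme2, the proteasome activator PA28, rose by 0.54 (adjusted p = 0.00623) and 0.64 (adjusted p = 0.000606), and the 4 Psm genes named here were the 4 of 46 proteasome genes called. B2m, the class I light chain, had 5376, 5637 and 6317 CPM in CD69+ libraries, against 4221, 4453 and 4767 CPM in CD69- libraries (log2 difference 0.35 (SE 0.08), adjusted p = 0.0113). The nonclassical H2-T23, which presents to NKG2A, and H2-Q7 rose by 0.56 (adjusted p = 0.000503) and 0.53 (adjusted p = 0.00598), with reads possibly shared among H2 genes. The B cell marker Ighm rose as well, by 1.11 (adjusted p = 0.00488), and B cell and dendritic cell sums were higher, as above. Their part was not tested.

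Cytosolic ribosomal protein genes were a little higher as a set. Of 82 tested 14 rose and 0 fell, 79 lay above 0, and the median was 0.35, against 0.00 over all genes. The count was 10 and 11 without CD69+ replicates 2 and 5, 4 without CD69+ replicate 4 or 6, and 5 to 9 without each of the other 8 libraries. Rps19, of the small subunit, had 408, 520.5 and 586 CPM in CD69+ libraries, against 309, 331 and 342 CPM in CD69- libraries (log2 difference 0.64 (SE 0.11), adjusted p = 0.000897), with no overlap. Rps20 and Rps18 rose by 0.60 (adjusted p = 0.0163) and 0.46 (adjusted p = 0.00598). Rpl13 rose by 0.40 (adjusted p = 0.0152) but not without CD69+ or CD69- replicate 4 (adjusted p = 0.0605 and 0.0512). Rpl26, Rpl36a, Rps27a and Rack1, at 0.50 (adjusted p = 0.0246), 0.63 (adjusted p = 0.0246), 0.51 (adjusted p = 0.0344) and 0.43 (adjusted p = 0.0187), kept their calls in 7 of 12, 6 of 12, 3 of 12 and 9 of 12 fits (adjusted p up to 0.0778, 0.0665, 0.0852 and 0.0594). Among translation factors 3 rose and 0 fell of 69 tested members (4.35% called, beside 2.74% over all genes). Their median log2 difference was 0.17, and 1 to 3 rose without 1 library at a time. Eef1g, of elongation factor 1, had 198, 206 and 255 CPM in CD69+ libraries, against 101, 141 and 164 CPM in CD69- libraries (log2 difference 0.65 (SE 0.14), adjusted p = 0.00892). Eif2b2 and Eif3e, initiation factor subunits, rose by 0.77 (adjusted p = 0.0423) and 0.57 (adjusted p = 0.0456) and kept their calls in 4 of 12 and 2 of 12 fits (adjusted p up to 0.113 and 0.13). For ribosome biogenesis 2 rose and 0 fell of 57 tested members (3.51% called, beside 2.74% over all genes), with a median log2 difference of 0.37. The 2 that rose were Npm1, nucleophosmin, and Mrto4, by 0.65 (adjusted p = 0.0371) and 0.88 (adjusted p = 0.0343), kept in 1 of 12 and 4 of 12 fits (adjusted p up to 0.0978 and 0.085). None of 77 mitochondrial ribosomal protein genes was called by edgeR (17 at an unadjusted p under 0.05, 3 called by DESeq2, 0 by limma-voom), at a median of 0.24 and with Mrpl38 lowest (adjusted p = 0.0611).

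Metabolic enzymes gave few calls. Odc1, the first enzyme of polyamine synthesis, had 256, 309 and 374 CPM in CD69+ libraries, against 100, 156 and 226 CPM in CD69- libraries (log2 difference 0.92 (SE 0.17), adjusted p = 0.00186), with no overlap, and had the smallest p of its group. Ctps, which makes CTP, rose by 2.19 (adjusted p = 0.0465) in the same group of 42 genes, kept in 2 of 12 fits (adjusted p up to 0.106). Prdx6, a peroxiredoxin, had 610.4, 727 and 846 CPM in CD69+ libraries, against 368, 459 and 506 CPM in CD69- libraries (log2 difference 0.71 (SE 0.11), adjusted p = 0.000356) with no overlap. It was the one call by edgeR among 51 redox and iron genes, where DESeq2 called 2 rises and limma-voom 1 rise and 1 fall. In glycolysis and lactate export 1 rose and 0 fell of 36 tested members, with a median log2 difference of 0.48, and 30 lay above 0. The call was the hexose transporter Slc2a6, at 2.05 (adjusted p = 0.0291), kept in 7 of 12 fits (adjusted p up to 0.0805). It was the one call by edgeR among 163 solute carriers, where DESeq2 called 4 rises and 1 fall and limma-voom 2 of each. The median of the same glycolysis genes was -0.34 in the CD27+ populations, where sums of tumour and stromal markers differed as given below. Me2, a mitochondrial malic enzyme, differed by -0.60 (adjusted p = 0.0298), kept in 4 of 12 fits (adjusted p up to 0.0778).

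In several metabolic groups no gene was called by edgeR, DESeq2 or limma-voom. Of 81 nuclear subunits of oxidative phosphorylation 12 had an unadjusted p under 0.05, with a median of 0.12, and Uqcrc2 had the lowest adjusted p, 0.09. Among 44 cholesterol and fatty acid genes 3 did, and among 34 amino acid, ATF4 and one-carbon genes 3 did, with Shmt1 lowest (0.249). None of 10 mitochondrially encoded genes had an unadjusted p under 0.05, with mt-Nd6 lowest (0.398). Of 106 chaperones 2 rose, Cct5 by 0.45 (adjusted p = 0.0283) and Pdia3 by 0.35 (adjusted p = 0.0363), kept in 5 of 12 and 2 of 12 fits (adjusted p up to 0.0765 and 0.0982). Among 36 cell death genes Casp4 and Xaf1 rose by 1.15 (adjusted p = 0.0462) and 0.72 (adjusted p = 0.0475), kept in 4 of 12 and 3 of 12 fits (adjusted p up to 0.155 and 0.117). Of 131 TMEM genes, Tmem173, the DNA-response adaptor STING, rose by 0.54 (adjusted p = 0.0367), kept in 2 of 12 fits (adjusted p up to 0.0956), and Tmem37 differed by -1.19 (adjusted p = 0.00119).

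The largest falls included genes outside these groups. Cma1, a chymase gene of mast cells, had 59.3, 74.9 and 99.9 CPM in CD69+ libraries, against 686, 826 and 1171 CPM in CD69- libraries (log2 difference -3.47 (SE 0.45), adjusted p = 3.29e-05). Of 9 mast cell and basophil genes, Mcpt4, Mcpt8, Tpsb2, Tpsab1, Fcer1a and Ms4a2 had no count in any of the 12 libraries, and the list summed to 7.49, 14.6 and 24.4 CPM in CD69+ libraries, against 1.83, 9.87 and 13.0 CPM in CD69- libraries. As3mt, an arsenic methyltransferase, had 54.7, 73.3 and 107 CPM in CD69+ libraries, against 215, 309 and 358 CPM in CD69- libraries (log2 difference -1.97 (SE 0.21), adjusted p = 1.7e-06). Its neighbour Borcs7, on the same strand of chromosome 19 with 4075 bases between them in GENCODE M21, encodes a lysosome-positioning subunit and had 21.1, 36.2 and 63.3 CPM in CD69+ libraries, against 112, 131 and 203 CPM in CD69- libraries (log2 difference -1.86 (SE 0.28), adjusted p = 0.000154). Gatsl3, also called Castor1, an arginine sensor upstream of mTORC1, had 9.54, 32.9 and 47.0 CPM in CD69+ libraries, against 75.9, 93.1 and 117 CPM in CD69- libraries (log2 difference -1.66 (SE 0.30), adjusted p = 0.00119). Ero1lb, an oxidase of the endoplasmic reticulum, had 4.97, 8.96 and 11.7 CPM in CD69+ libraries, against 20.2, 33.2 and 42.0 CPM in CD69- libraries (log2 difference -1.86 (SE 0.33), adjusted p = 0.0011). Dhrs3, a retinal reductase, the milk-clotting protease gene Cym and Rhpn1 differed by -1.71 (adjusted p = 0.0452), -2.39 (adjusted p = 0.0465) and -4.88 (adjusted p = 0.0344), kept in 2 of 12, 1 of 12 and 3 of 12 fits (adjusted p up to 0.113, 0.11 and 0.0892). The counts of Rhpn1 in CD69+ cells came from replicate 2 alone, and without it adjusted p was 0.00187.

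Some genes were found in 1 population only. With counts in 5 or 6 CD69+ libraries and none in CD69- libraries there were 10, all of them called. Besides Ifi44, Rsad2, Ifi211, Zbtb32, Zfp418 and Zfp975 they were Ifit3b, Ccdc184, Dscam and Zfp939, at least 38.6-fold, 84.2-fold, 37.9-fold and 51.9-fold higher. The reverse held for Ccne1, Parm1 and the clone-named Gm44667, at least 23.1-fold, 40.8-fold and 15.8-fold lower. Ifit3b, Ccdc184, Dscam, Zfp939, Parm1 and Gm44667 were chosen after their values were seen, and for them and Ighm the fits without 1 library are not given. In the CD27+ populations 12 of these 13 genes had counts in at least 1 library of both CD69 states, Parm1 being seen in 0 of 6 CD69+ and 4 of 6 CD69- libraries. Zbtb32, 1 of the 12, was seen there in 6 of 6 CD69+ but 1 of 6 CD69- libraries.

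The same sort by CD69 in CD27+ cells shares no library with that in CD11b+ cells, and 195 genes were called there (1.85%). Markers of other cells differed strongly between those libraries. The 8 fibroblast genes summed to 0, 0 and 238 CPM in CD27+CD69+ libraries, against 269, 5436 and 11100 CPM in CD27+CD69- libraries, with no overlap. The 9 melanocyte genes summed to 0.454, 12.1 and 1026 CPM in CD27+CD69+ libraries, against 17.5, 684 and 11360 CPM in CD27+CD69- libraries, with overlap, and the 16 NK genes to 22210, 24110 and 26660 CPM in CD27+CD69+ libraries, against 14910, 23490 and 26150 CPM in CD27+CD69- libraries. The part of such cells in every value below that uses CD27+ libraries was not tested. Of the 173 genes that rose in CD11b+ cells, 144 had a positive difference in CD27+ cells, 23 were called in the same direction and 1 in the opposite one, and their median difference there was 0.41. Of the 116 that fell, 73 had a negative difference in CD27+ cells and 4 were called, with a median of -0.13. Ms4a4c was called in both, at 1.91 (adjusted p = 7.31e-07) in CD27+ cells, as were Gzmc at 4.70 (adjusted p = 0.00107), Rasgrp2 at -1.76 (adjusted p = 0.00235) and the class I genes H2-T23 and Psme2 at 0.62 (adjusted p = 0.000218) and 0.62 (adjusted p = 0.00107).

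The 2 CD69 differences were themselves unlike for 61 genes (0.579%), 36 of them more positive in CD11b+ cells. Of the 61, 30 were called in the CD11b+ comparison, 23 in the CD27+ one, 1 in both and 9 in neither. Ifi44 and Ifi211 led (adjusted p = 1.4e-05 each): they were at 0 only in CD11b+CD69- cells, and Ifi44 had 23.8, 44.2 and 91.9 CPM in CD27+CD69+ libraries, against 11.6, 27.7 and 38.0 CPM in CD27+CD69- libraries. Arhgap5, Rsad2, Oasl2, Isg20, Bst2, Lgals3bp, Ly6e and Slfn5 had the same sign (adjusted p from 0.00271 to 0.0347). Ly6e had 3059, 3330 and 3985 CPM in CD27+CD69+ libraries, against 1891, 2512 and 3263 CPM in CD27+CD69- libraries, so the CD27+ populations overlapped. Hif1a had 90.2, 117 and 142 CPM in CD27+CD69+ libraries, against 95.5, 129 and 169.7 CPM in CD27+CD69- libraries and a difference there of -0.19 (adjusted p = 0.842), unlike its rise in CD11b+ cells (adjusted p = 0.0153).

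**Figure D5:**
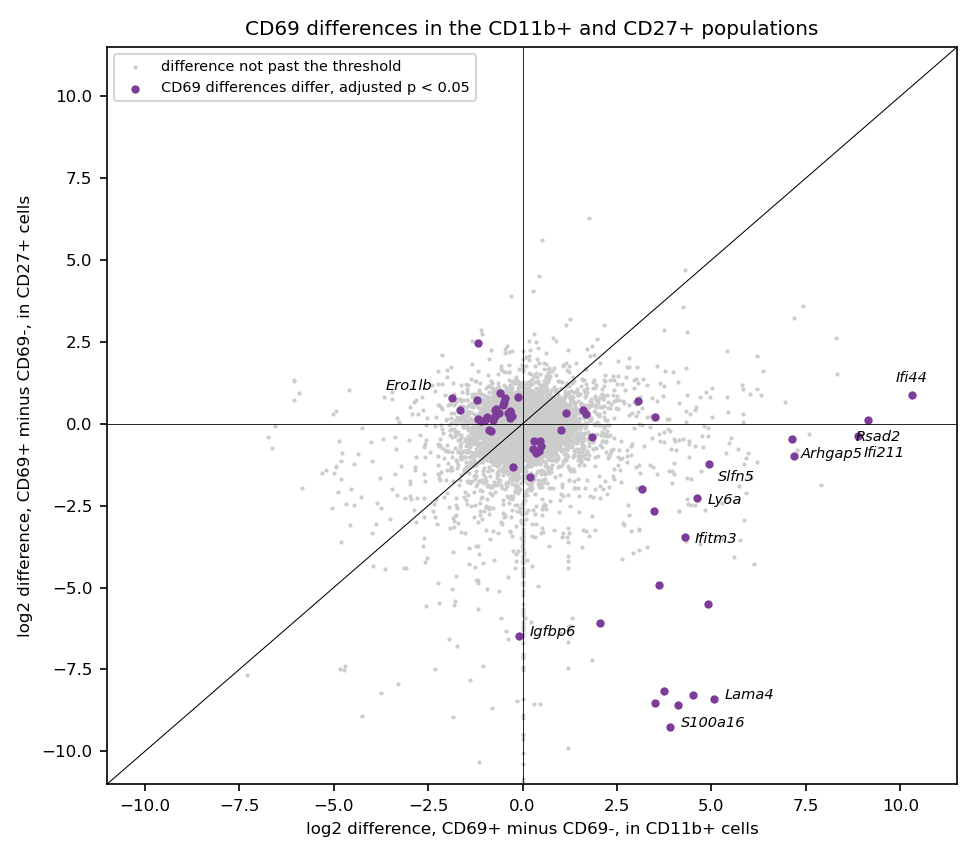
Each point is 1 of 10536 genes, with the fitted log2 difference CD69+ minus CD69- in CD11b+ cells on the x axis and that in CD27+ cells on the y axis. Purple points are the 61 genes whose differences were called unlike, and the line marks equal differences. Ifi44, Ifi211 and Rsad2 lie far right near 0 on the y axis, and S100a16, Lama4 and Igfbp6 lie low, with most of their counts in CD27+CD69- libraries. For genes without counts in a population the fitted size is not a measured fold.

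Among genes more negative in CD11b+ cells were several of the adhesion and signalling falls. Rap1b had 846, 1012 and 1105 CPM in CD27+CD69+ libraries, against 910.5, 1179 and 1339 CPM in CD27+CD69- libraries, which overlapped. Itgb2 had 542, 648 and 881 CPM in CD27+CD69+ libraries, against 314, 602 and 1055 CPM in CD27+CD69- libraries, which overlapped too. The difference between the comparisons had adjusted p = 0.0153 and 0.0372. Ccnd3, Nedd9, H2afz, Klrc2, Ly6c2, Tmem37, Gatsl3 and Ero1lb were called likewise (adjusted p from 0.00451 to 0.0441). Klra9, an Ly49 receptor, and Slamf7, a SLAM receptor, were not called in CD11b+ cells (-0.59 and -0.47) but rose in CD27+ cells by 0.94 (adjusted p = 0.0139) and 0.79 (adjusted p = 0.011), and those differences were unlike (adjusted p = 0.0118 and 0.0118). For Rasgrp2, Klf2, Flna and Actb the differences between comparisons did not pass (adjusted p = 0.625, 0.0505, 0.31 and 0.0894).

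For other genes among these calls, levels were high in CD27+CD69- libraries. Ifitm3, an antiviral membrane protein, had 15.6, 43.9 and 80.0 CPM in CD69+ libraries, against 0, 1.23 and 7.12 CPM in CD69- libraries among CD11b+ cells (log2 difference 4.29 (SE 0.77), adjusted p = 0.00162, but adjusted p = 0.0897 with limma-voom). It had 0.907, 32.7 and 123 CPM in CD27+CD69+ libraries, against 246, 446 and 685 CPM in CD27+CD69- libraries, and the 2 differences were unlike (adjusted p = 0.000155). Ly6a had 60.7, 169 and 274 CPM in CD27+CD69+ libraries, against 75.3, 699.8 and 1518 CPM in CD27+CD69- libraries (adjusted p = 0.00271). S100a16, Igfbp6 and Lama4, genes of calcium binding, growth factor binding and basement membrane, were not called in CD11b+ cells and had medians of 122, 192.5 and 46.5 CPM in CD27+CD69- libraries. High fibroblast sums were found in the same CD27+CD69- libraries, as given above. The median difference of the 4 fibroblast genes tested was -8.22 in CD27+ cells. Among CD11b+ cells Col6a1, Dcn, Lum and Pdgfra had no count in any of the 12 libraries, and the 8 fibroblast genes summed to 0 in every CD69+ library, against 0, 0.246 and 8.02 CPM in CD69- libraries, the highest being replicate 4. The part of these cells in the differences was not tested. Without 1 CD11b+ library at a time 37 to 69 of these differences were called, the fewest without CD69- replicate 4.

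Neither the cytokine of the study's title nor the other sort marker was called. Flt3l, which encodes that cytokine, had 25.7, 40.4 and 60.4 CPM in CD69+ libraries, against 32.5, 52.8 and 61.6 CPM in CD69- libraries (log2 difference -0.27 (SE 0.30), adjusted p = 0.792), with overlap. Cd27 had 85.9, 138 and 190.1 CPM in CD69+ libraries, against 34.8, 85.4 and 149 CPM in CD69- libraries (log2 difference 0.69 (SE 0.23), adjusted p = 0.108).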

How the data were processed

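RNA of 100 sorted cells per library was reverse transcribed and amplified with the SMART-Seq v4 kit and made into libraries with Nextera XT, per the labels' protocols. The deposited table holds raw read counts per gene for 24 libraries. HTSeq, Picard and the build GRCm38 are named in the submitters' processing notes, while no source used here names the aligner, versions or strand setting. There are no molecular identifiers, so intervals and floors cover counting error only, and reads of overlapping genes (58 of 169 named genes share exons with another) or of close paralogs cannot be told apart. Of 53471 entries, 3433 had no symbol and held 0.174% of counts. Coordinates are from GENCODE M21.

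Counts were filtered with filterByExpr (minimum count 10), scaled by TMM and fitted with edgeR 4.0.16 (R 4.3.3) as 4 group means over 24 libraries with robust quasi-likelihood F-tests. Benjamini-Hochberg adjustment ran over 10536 genes at a threshold of 0.05. CPM values use TMM-scaled library sizes, and totals in the CD11b+ libraries were 1830124 counts or more. Adjusted p-values without a named tool are from this fit. Contrasts were CD69+ minus CD69- in CD11b+ cells, the same in CD27+ cells, and their difference. The scripts were tested on simulated data. Replicate libraries differed beyond counting noise (chi-square per degree of freedom 13.7 to 17.9 over 30 pairs), so all were counted.

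Named genes were the sort markers and Flt3l, the 12 largest rises and falls with a mean of 10 CPM or more, detection in at least 5 libraries of the higher population, 5 of which also lay past the other's median, up to 8 called members per gene group in each direction by smallest p (or the member with the smallest p), and 6 genes each way for the difference between comparisons. Clone-named genes were excepted, and some genes that the rule takes are not reported here. Genes outside the rule are said to be so. The members and lists were chosen with earlier results of these data known. Alternatives were DESeq2 1.42.0, limma-voom (limma 3.58.1), other scalings and filters, the 12 libraries alone, a replicate block and each library left out.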

Additional observations from a re-analysis of the deposited data

Results flagged for a closer look

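In groups of 6 libraries, a library was marked when its gap to the nearest of the others exceeded 0.625 of the group's range, and chance marks about 1 group in 20. Of 338 groups of named genes 33 were marked, 6 of them through replicate 5 of CD69-. High among CD69+ libraries were replicate 4 for B2m (6317 CPM, next 5699), replicate 5 for Cd3g (98.2 CPM, next 38.6), replicate 5 for Cym (45.0 CPM, next 20.5), replicate 2 for Flna (359.5 CPM, next 196), replicate 1 for Lama4 (11.3 CPM, next 0) and replicate 5 for Nedd9 (313 CPM, next 192). Further CD69+ libraries above the rest were replicate 6 for Pdcd1lg2 (58.4 CPM, next 42.5), replicate 2 for Rhpn1 (6.65 CPM, next 0), replicate 1 for S100a16 (4.77 CPM, next 0), replicate 6 for Serpina3f (293 CPM, next 152), replicate 3 for Spp1 (1379 CPM, next 95.3) and replicate 4 for mt-Nd6 (146 CPM, next 63.8). Low among CD69+ libraries were replicate 1 for Ikzf2 (3.47 CPM, next 27.4) and replicate 6 for Tspan13 (440.4 CPM, next 537). High among CD69- libraries were replicate 3 for Adgre5 (842 CPM, next 718), replicate 4 for Arhgap5 (0.382 CPM, next 0), replicate 5 for Borcs7 (203 CPM, next 139), replicate 5 for Cd3g (19.2 CPM, next 0), replicate 6 for Cdc42se1 (398 CPM, next 342) and replicate 1 for Ifit3 (21.9 CPM, next 0). Further CD69- libraries above the rest were replicate 1 for Lgals3bp (460.5 CPM, next 347), replicate 6 for Mif (165 CPM, next 127), replicate 1 for Rtp4 (83.1 CPM, next 33.2), replicate 3 for Shmt1 (11.1 CPM, next 0.382) and replicate 6 for Slfn5 (2.46 CPM, next 0). The remaining high CD69- values were replicate 5 for Stmn1 (113 CPM, next 58.8), replicate 1 for Tmem173 (450.4 CPM, next 309), replicate 5 for Tnfsf9 (4.92 CPM, next 1.23), replicate 6 for Zfp52 (85.3 CPM, next 36.5) and replicate 5 for mt-Nd6 (78.2 CPM, next 49.3). Low among CD69- libraries were replicate 2 for Npm1 (232 CPM, next 285), replicate 5 for Psmb9 (242 CPM, next 269) and replicate 2 for Spp1 (0 CPM, next 14.7). Results given without such a library stand in the report for Spp1, Cd3g, Ifit3, Slfn5 and Rhpn1.

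For 29 named genes the CD69 difference in CD11b+ cells was unlike that in CD27+ cells by the edgeR test of the difference itself. The CD11b+ difference exceeded the CD27+ one, on the log2 scale, by 1.40 for Bst2, 1.21 for Hif1a, 7.73 for Ifitm3, 6.40 for Igfbp6, 2.33 for Isg20, 0.83 for Lgals3bp, 6.88 for Ly6a, 1.19 for Ly6e, 3.29 for Oasl2 and 6.18 for Slfn5. It was below it, with log2 values of -0.90 for Ccnd3, -2.63 for Ero1lb, -2.07 for Gatsl3, -0.60 for H2afz, -1.19 for Itgb2 and -1.53 for Klra9. Likewise below it were those of Klrc2 at -0.97, Ly6c2 at -1.95, Nedd9 at -1.15, Rap1b at -0.70, Slamf7 at -1.27 and Tmem37 at -1.34. For Arhgap5, Ifi211, Ifi44, Lama4, Rgs11, Rsad2 and S100a16 a CD11b+ population had at most 1 count, so the fitted values of 7.60, 9.23, 9.43, 13.45, 8.15, 9.04 and 13.17 depend on the prior count and give no size. Fibroblast genes summed to 0 to 238 CPM in CD27+CD69+ libraries, against 269 to 11100 CPM in CD27+CD69- libraries, and their part in these differences was not tested.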

How the results depend on the processing

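Counts of genes moved with the tool more than with the scaling. DESeq2 called 287 rises, 196 falls and 169 differences between the CD11b+ and CD27+ comparisons, against 173, 116 and 61 with edgeR. Falls numbered 191 with limma-voom, 196 with the 12 CD11b+ libraries fitted alone and 71 with no filter on low counts, and differences between comparisons 40 with a mean of 10 CPM or more. More genes were tested without the filter. Why the numbers moved was not tested for any of these settings. Without 1 of the 12 CD11b+ libraries at a time there were 128 to 154 rises, 81 to 110 falls and 37 to 69 differences between comparisons (37 without CD69- replicate 4). Other settings gave counts within 1.5 times. Scaling by RLE or upper quartile factors shifted the median of all genes by at most 0.0099.

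Among named genes, 166 of 169 results kept direction and side of the threshold with DESeq2, 145 with limma-voom and 130 with no filter. With DESeq2 the call of Rhpn1 was lost (adjusted p = 0.0877). Besides the genes so marked in the report, those lost with limma-voom were Eif3e, Cd160, Trim12c, Casp4, Ly6c2, Stmn1, Ccne1 and Ikzf2 (adjusted p from 0.0569 to 0.465), and with the 12 CD11b+ libraries alone Rgs1, Eif2b2, Tspan5, Cd160, Zfp52, Slc2a6, Tcf7, Mrto4, Ctps and Ikzf2 (from 0.054 to 0.181). The one change of sign was that of Igfbp6, not called at -0.10, which ran from -0.423 (without CD69+ replicate 1) to 0.0625 and became 0.0354, 0.0464 and 0.0625 without CD69+ replicates 2, 3 and 6, and 0.0052 and 0.0331 without CD69- replicates 1 and 5. The replicate block on the M number gave 166 rises, 107 falls and 65 differences between comparisons, and 15 named genes lost their call. Deviations over genes gave r from -0.0124 to 0.0226 for samples of 1 number, against -0.0331 to 0.0334 for other pairs. Of these, 1 of 6 correlated best with its own number. Such weak correlations cannot decide whether samples of 1 number belong together, as spread between libraries may hide a shared source. What the number marks is not given, so it was not taken as a pairing in the main fit.

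With about 100 cells per library, 3 counts were 1.22 to 1.64 CPM in CD69+ libraries and 1.12 to 1.42 CPM in CD69- libraries, and lower levels rest on 1 or 2 counts.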
